A study of Homo sapiens with 8 samples.

Results

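The cytosolic chaperonin CCT, also called TRiC, is built from 8 different subunits, encoded by TCP1 (alpha), CCT2 (beta), CCT3 (gamma), CCT4 (delta), CCT5 (epsilon), CCT6A (zeta), CCT7 (eta) and CCT8 (theta). Ribosome densities on these 8 mRNAs and on the mRNA of PDCL3 were followed through single amino acid starvation in HEK293T cells, an established line of human embryonic kidney cells that carries the SV40 large T antigen. The 9 genes were taken by name from 12235 genes listed in at least 1 library. Each was read from the transcript with the highest value in the library, as RPKM, a footprint density that divides the reads of an mRNA by the length of its coding sequence and by the depth of the library. All cells were wild type and were kept overnight in amino acid-sufficient medium (Suff) or in the same medium without arginine (Arg-), leucine (Leu-) or methionine (Met-). Ribosomes were collected after a short cycloheximide pretreatment (CHX), a drug that holds elongating ribosomes on the mRNA, or without the drug. This gave 8 libraries, 1 per condition with no replicates, so no difference was tested, and the 95% intervals given below cover counting error only. RPKM is relative to the footprints of its library, and no library of total mRNA was among the 8. Higher and lower below are thus relative, and do not separate the level of an mRNA from its translation. The paper reports by puromycin labeling that protein synthesis was reduced in each of these starved media.

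CCT folds newly made proteins inside a double ring. Every ring holds 1 copy of each subunit, so the subunits are needed in equal amounts, and actin and tubulin are its best known clients. Prefoldin, a complex of 6 small subunits, binds unfolded actin and tubulin and hands them to CCT. PDCL3 is a phosducin-like protein that binds CCT and takes part in folding actin and tubulin. It belongs to the family of PDCL, which assists the folding of G protein beta subunits, and of TXNDC9, and it is not a subunit of prefoldin.

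The coding libraries held between 538222 reads (Met-, with cycloheximide) and 6434043 reads (Leu-, with cycloheximide), and between 1302523 and 3139745 without the drug. The series with cycloheximide listed no mRNA below 64 reads, the other none below 5, and according to the records duplicate reads were removed in the latter. The drug and these differences in processing cannot be told apart, so ratios were taken only within a series. All 9 mRNAs were listed in 7 libraries, and 6 of 9 were listed in Met- with cycloheximide, where TCP1, CCT2 and PDCL3 were missing. As a check of the starvation, the mRNA of ASNS (asparagine synthetase, a target of the amino acid response factor ATF4) stood at 68.0 RPKM in Suff without cycloheximide and at 689 (Arg-), 607 (Leu-) and 392 (Met-). With cycloheximide its RPKM was 22.3 in Suff and 618, 262 and 178 in the starved media.

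The 9 genes lie apart in the genome. On GRCh38 they are TCP1 at chr6:159778498-159789703 (minus strand), CCT2 at chr12:69585426-69601570 (plus), CCT3 at chr1:156308968-156367873 (minus), CCT4 at chr2:61868085-61888671 (minus) and CCT5 at chr5:10249929-10266389 (plus). CCT6A lies at chr7:56051685-56063989 (plus), CCT7 at chr2:73233420-73253021 (plus), CCT8 at chr21:29055805-29073797 (minus) and PDCL3 at chr2:100562993-100576739 (plus).

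Several of these genes have pseudogenes, processed or unprocessed, or related noncoding transcripts that share stretches of their sequence. A footprint that matches both copies is not uniquely mapped where both are in the reference. Of all 28-nt windows along the coding sequence, 72.8% of those of PDCL3, 40.0% of TCP1, 33.3% of CCT6A, 32.8% of CCT8 and 22.2% of CCT5 also occur in transcripts of another gene in GENCODE release 44. For CCT7 the share was 9.99%, for CCT4 it was 2.01%, and CCT2 and CCT3 had no such window. The first 2 windows below are shown because they are identical in the gene and in a pseudogene, so that a footprint there has no unique origin. They are given in the direction of the mRNA, for TCP1 (chr6:159779982-159780009, minus strand, also in TCP1P3 on chromosome 12) and PDCL3 (chr2:100571629-100571656, plus strand, also in PDCL3P5 on chromosome 6). The last pair are PDCL3 at chr2:100566509-100566536 (plus strand) and the matching stretch of PDCL3P5, which differ only at the base in capitals and can be told apart when no mismatch is allowed.
TCP1 and TCP1P3: acatgatgcactttgtgtagtgaagaga
PDCL3 and PDCL3P5: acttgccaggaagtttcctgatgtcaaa
PDCL3: aacgcagacactgaAtggaatgacatct
PDCL3P5: aacgcagacactgaGtggaatgacatct
Whether these pseudogenes were in the transcriptome the reads were aligned to is not given in the sources used here. A loss of shared footprints would bear on comparisons between genes. It would leave a gene's ratio between media unchanged only if footprints were spread alike along the mRNA in each medium. The paper reports a changed distribution of ribosomes along mRNAs in methionine-deficient cells, and the part of shared windows in the ratios was not tested.

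In sufficient medium without cycloheximide the 8 subunits had some of the higher footprint densities, ranking between 294 and 913 of 11437 genes. CCT7 stood at 770.3 RPKM, CCT4 at 612, CCT3 at 542, TCP1 at 499.8, CCT5 at 479, CCT6A at 436, CCT2 at 299 and CCT8 at 238. In this order the neighbours TCP1 and CCT5 did not differ beyond counting error, and every other neighbouring pair did. Together the 8 mRNAs held 0.632% of the coding reads. PDCL3 lay well below them at 157 RPKM (95% interval 142 to 175).

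With cycloheximide the same medium gave a lower and differently ordered set of values. TCP1 stood at 185 RPKM, CCT4 at 184, CCT7 at 177, CCT3 at 141, CCT6A at 115, CCT5 at 82.3, CCT2 at 71.5 and CCT8 at 49.4. The 3 highest subunits could not be ordered by their counting intervals, nor could CCT5 and CCT2. The 8 mRNAs held 0.160% of the coding reads and ranked between 1282 and 3018 of 5466 genes. In the 3 starved libraries of that series their share was 0.529% (Arg-), 0.491% (Leu-) and, over the 6 subunits listed, 0.307% (Met-), and their best rank was 245, 231 and 255. The sufficient library with cycloheximide therefore had the lowest share of CCT reads in its series, and it is the common denominator of every ratio there. This did not hold for TCP1 alone, which was lower in Leu- (168 RPKM) and in Met- (at most 70.2 RPKM).

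**Figure D1:**
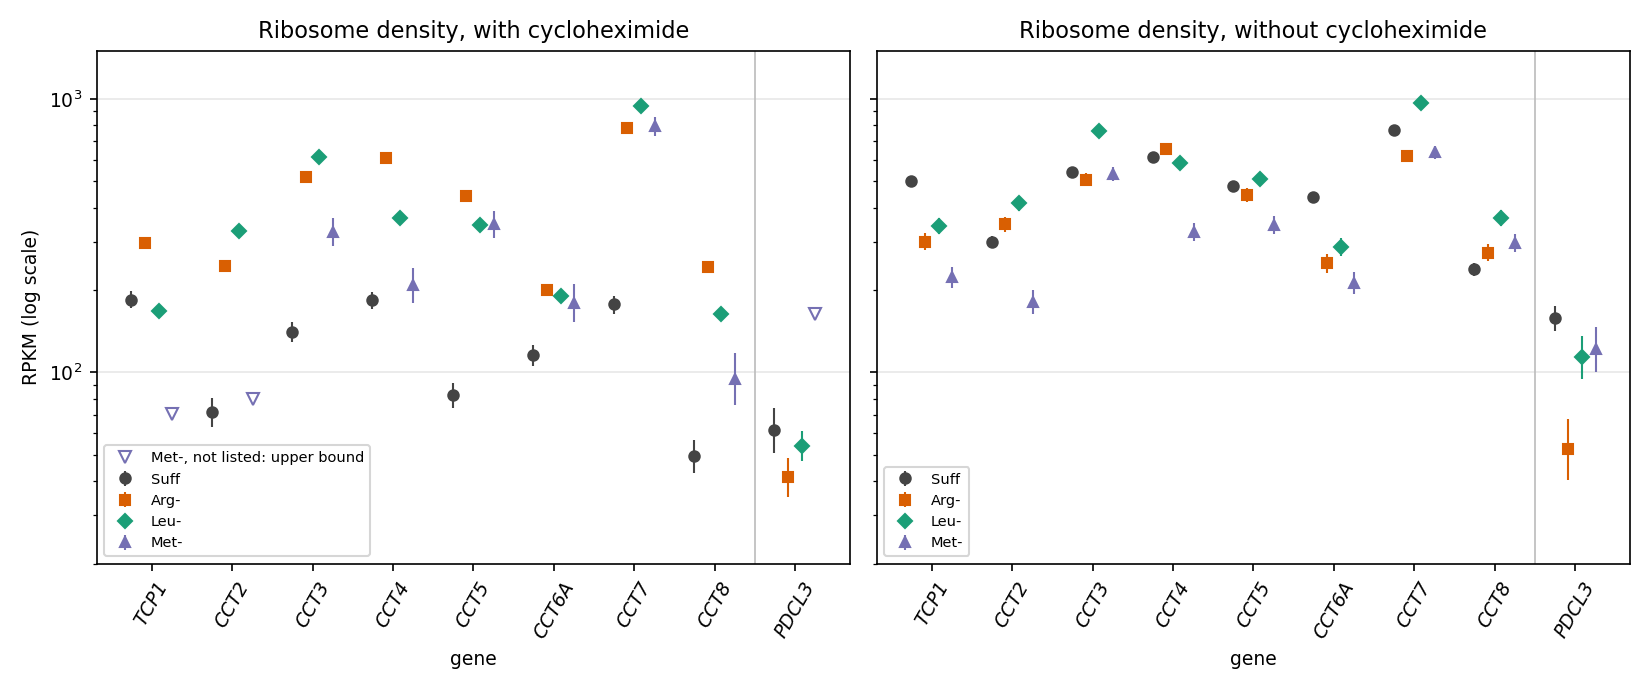
Ribosome density in RPKM (log scale) of the 8 CCT subunits and PDCL3 in the 4 media, with cycloheximide (left) and without (right). Filled points are the 8 libraries with 95% Poisson counting intervals, and open triangles are upper bounds for the 3 mRNAs not listed in Met- with cycloheximide. With the drug the sufficient library is the lowest of those listed for all subunits but TCP1, and without it the starved values lie on both sides of Suff.

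Arginine starvation with cycloheximide gave a higher density than sufficient medium for all 8 subunits. CCT5 stood at 443 RPKM against 82.3 in Suff, which was 5.38-fold (log2 ratio 2.41, interval 2.27 to 2.59). CCT8 was 4.91-fold, CCT7 4.41-fold, CCT3 3.67-fold, CCT2 3.42-fold and CCT4 3.30-fold higher. TCP1 (297 against 185 RPKM) and CCT6A (200.2 against 115) were higher by less, with log2 ratios of 0.69 and 0.79. Thus 6 of 8 subunits were at least 2-fold higher, where 29.7% of all 6224 mRNAs compared were, or 16.6% of those listed in both libraries. None was at least 2-fold lower, where 18.4% of all mRNAs were. The median log2 ratio was 1.82 over the subunits and -0.01 over all mRNAs compared.

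Leucine starvation with cycloheximide gave a similar median of 1.88 over the subunits, against 0.21 over all mRNAs. CCT7 was the highest at 945 RPKM, 5.34-fold its level in Suff (log2 ratio 2.41, interval 2.30 to 2.53). CCT2 was 4.61-fold, CCT3 4.37-fold, CCT5 4.21-fold and CCT8 3.30-fold higher. CCT4 went from 184 to 368 RPKM, a log2 ratio of 0.996, just under the 2-fold limit. TCP1 was the exception at 168 RPKM, slightly below Suff (log2 ratio -0.13, interval -0.26 to -0.01). In all, 5 of 8 subunits were at least 2-fold higher, against 26.3% of all mRNAs and 12.1% of those listed in both libraries. None was at least 2-fold lower, where 6.32% of all mRNAs were.

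Methionine starvation with cycloheximide was the shallowest library, and 2788 of the 4805 mRNAs compared were not listed in it. The 6 listed subunits were at 793 (CCT7), 348 (CCT5), 327 (CCT3), 208 (CCT4), 179.6 (CCT6A) and 94.9 RPKM (CCT8). CCT7 was 4.48-fold, CCT5 4.23-fold and CCT3 2.33-fold higher than in Suff, and these 3 passed the 2-fold limit, as did 21.0% of all mRNAs compared and 46.7% of those listed in both libraries. The median log2 ratio was 1.07 over the 6 listed subunits and 0.89 over all mRNAs listed in both, so that CCT lay close to the mRNAs it could be compared with. TCP1 would have been listed from 64 reads on, so it held at most 70.2 RPKM, at least 2.61-fold below its 185 RPKM in Suff (log2 ratio at most -1.38). Of all mRNAs compared 61.9% were at least 2-fold lower, most of them because they were not listed. For CCT2 the same limit was 80.0 RPKM and for PDCL3 163 RPKM, both above their levels in Suff, so no direction could be given.

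Without cycloheximide the subunits stayed close to their sufficient levels in Arg- and Leu-. No subunit reached 2-fold in either direction in these 2 comparisons, where 8.33% of all mRNAs were at least 2-fold higher and 6.05% lower in Arg-, and 6.89% and 2.12% in Leu-. The median log2 ratio of the subunits was -0.10 in Arg- and 0.20 in Leu-, beside -0.02 and 0.14 over all mRNAs. CCT8 was the most raised in Leu-, at 367 against 238 RPKM (log2 ratio 0.62, interval 0.50 to 0.75), followed by CCT3 at 765 against 542 (0.50) and CCT2 at 415 against 299 (0.47). In Arg- 5 of 8 subunits lay below Suff with intervals below 0, among them CCT7 (-0.32), CCT3 (-0.10) and CCT5 (-0.10). The intervals of CCT3 and CCT5 ended at -0.0016 and -0.0004, and of all mRNAs compared in Arg- 48.6% lay above 0. TCP1 and CCT6A lay below Suff in both media. TCP1 stood at 301 (Arg-) and 344 RPKM (Leu-) against 499.8 in Suff, and CCT6A at 251 and 287 against 436. Their log2 ratios were -0.73 and -0.54 for TCP1 and -0.80 and -0.60 for CCT6A, with intervals that excluded 0.

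Methionine starvation without cycloheximide gave lower densities for 7 of 8 subunits. TCP1 stood at 223 RPKM, 2.24-fold below Suff (log2 ratio -1.16, interval -1.31 to -1.02), and CCT6A at 212, 2.06-fold below (-1.04, interval -1.19 to -0.89). CCT4 was at 326 against 612 RPKM (-0.91), CCT2 at 181 against 299 (-0.72), CCT5 at 347 against 479 (-0.47) and CCT7 at 638 against 770.3 (-0.27). CCT3, at 529.6 RPKM, differed from Suff by less than its counting error (-0.03, interval -0.13 to 0.07), and CCT8 was higher at 298 against 238 (0.32). The 2 subunits at least 2-fold lower compare with 5.47% of all mRNAs, and 20.2% of all mRNAs were at least 2-fold higher. The subunit median was -0.59, and since the median over all mRNAs was 0.31, it was -0.91 relative to that. On the same relative scale 4 of 8 subunits were at least 2-fold lower, TCP1, CCT6A, CCT4 and CCT2, beside 10.8% of all mRNAs, and CCT8 was level with all mRNAs (0.01).

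**Figure D2:**
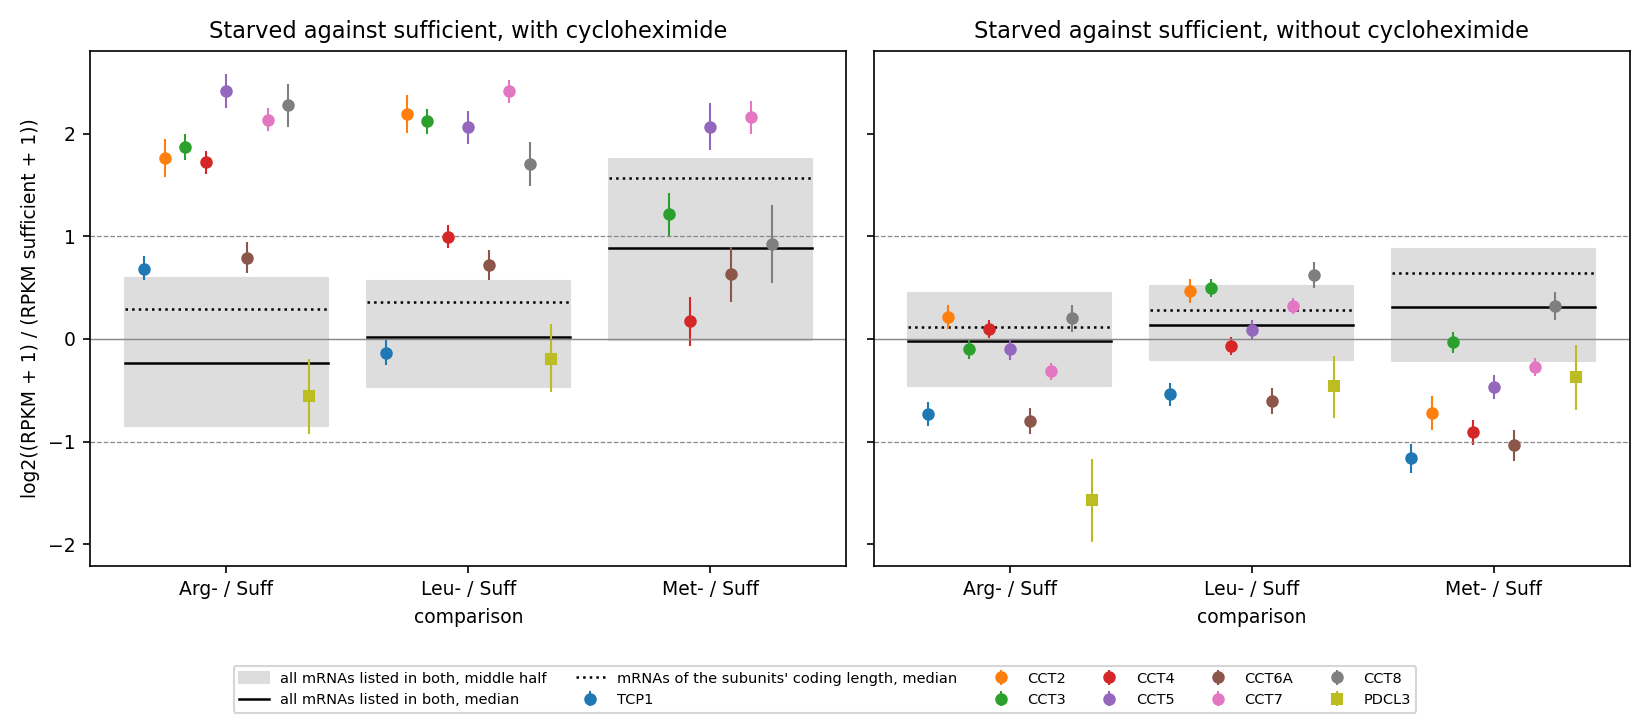
log2((RPKM + 1) / (RPKM sufficient + 1)) of each CCT subunit (circles) and PDCL3 (squares) for the 3 starvations, with cycloheximide (left) and without (right). Bars are 95% counting intervals, grey boxes and solid lines the interquartile range and median of all mRNAs listed in both libraries, dotted lines the median of mRNAs of the subunits' coding length, and dashed lines 2-fold. With the drug 6 subunits lie above 2-fold in Arg- and 5 in Leu-, and without it TCP1 and CCT6A lie below 0 in all 3 media.

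Coding length moved with these ratios. With cycloheximide, mRNAs whose coding sequences were as long as those of the subunits (1464 to 1668 nt) had a median log2 ratio of 0.29 in Arg-, 0.36 in Leu- and 1.57 in Met-, over mRNAs listed in both libraries, beside -0.23, 0.02 and 0.89 over all such mRNAs. Of these like-sized mRNAs 30.8% were at least 2-fold higher in Arg-, 22.6% in Leu- and 69.5% in Met-. The subunit medians of 1.82 and 1.88 in Arg- and Leu- were above these values, and the 1.07 of Met- was below. Without the drug, mRNAs of 1596 to 1671 nt had medians of 0.12, 0.28 and 0.64, and the subunit medians of -0.10, 0.20 and -0.59 were below all 3. For mRNAs with densities in the range of the subunits in Suff without the drug (238 to 770.3 RPKM) the medians over those listed in both libraries were -0.51, -0.21 and 0.13 with cycloheximide and -0.50, -0.20 and -0.40 without. The part of length and level in the subunits' ratios was not tested.

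The starved media were also set against each other within each series. Without cycloheximide, all 8 subunits were lower in Met- than in Leu-, from 0.44-fold for CCT2 (log2 ratio -1.19) to 0.81-fold for CCT8 (-0.30), where the median of all mRNAs was 0.15. CCT4 was the subunit that differed most between Met- and Arg-, at 326 and 653 RPKM, a log2 ratio of -1.003, followed by CCT2 at -0.93. CCT3, CCT7 and CCT8 did not differ between these 2 media beyond counting error. Leu- was above Arg- by 0.64 for CCT7 and 0.59 for CCT3 on the log2 scale, and CCT4 alone was lower in Leu- (-0.16). With cycloheximide CCT4 was again lower in Leu- than in Arg- (368 and 607 RPKM, log2 ratio -0.72), as were TCP1 (168 and 297, -0.82), CCT8 (-0.57) and CCT5 (-0.35). CCT2 (0.43), CCT7 (0.27) and CCT3 (0.25) were higher in Leu-, and CCT6A (-0.07) did not differ beyond counting error.

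The 8 subunits did not keep equal densities in any library. Without cycloheximide the highest subunit was 3.23-fold above the lowest in Suff, 2.61-fold in Arg-, 3.36-fold in Leu- and 3.52-fold in Met-, and the coefficient of variation over the 8 was 34.8%, 36.9%, 44.003% and 46.8%. With cycloheximide the spread was 3.73-fold in Suff, 3.91-fold in Arg-, 5.80-fold in Leu- and, over the 6 listed, 8.35-fold in Met-. CCT7 was the highest subunit in 6 of 8 libraries, between 1.82 and 2.44 times the mean of the listed subunits in Leu- and Met-. Among the listed subunits CCT8 was the lowest in 4 libraries, CCT6A in 3 and CCT2 in 1. In Met- with cycloheximide TCP1 and CCT2 were not listed, and their bounds, at most 70.2 and 79.95 RPKM, lie below the 94.9 of CCT8. In Suff with cycloheximide TCP1 led, at 1.47 times the mean, and it was at 0.43 times the mean in Leu- of the same series. The neighbours in the order that did not differ beyond counting error in the starved media without the drug were CCT4 and CCT7 and then TCP1, CCT8 and CCT6A in Arg-, CCT8 and TCP1 in Leu-, and CCT5, CCT4 and CCT8 and then TCP1 and CCT6A in Met-. With the drug they were CCT2 and CCT8 in Arg-, TCP1 and CCT8 in Leu-, and CCT5 and CCT3 and then CCT4 and CCT6A in Met-.

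The densities were also uneven when the shared windows were allowed for. That step applies only if the pseudogenes were in the reference, which is not known. Its shares for CCT2 and CCT7 came from the full-length transcripts in both series. When each RPKM was divided by the share of windows found in no other gene, the highest subunit was 2.86-fold above the lowest in Suff, 1.98-fold in Arg- and 2.58-fold in Leu- without cycloheximide, but 3.91-fold in Met-. With the drug it was 3.55-fold in Arg-, 4.33-fold in Leu- and 6.24-fold in Met-, and in Suff the spread widened from 3.73-fold to 4.30-fold. The isoform listed is a further limit between genes. The series with cycloheximide listed CCT2 and CCT7 under shorter transcripts, of 1464 and 1497 nt of coding sequence, than the full-length ones of the other series.

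Without cycloheximide MCM2-7 and prefoldin, other complexes with fixed stoichiometry, had spreads of the same order. Over the MCM2-7 helicase, the hexamer that unwinds DNA for replication, the highest subunit without cycloheximide was 3.33-fold above the lowest in Suff and 2.92-fold, 4.07-fold and 2.10-fold in Arg-, Leu- and Met-. For prefoldin the spread was 3.67-fold in Suff, 3.72-fold in Arg-, 3.16-fold in Leu- and 7.64-fold in Met-. The alpha ring of the 20S proteasome was wider, at 28.5-fold in Suff over 6 of 7 subunits, because PSMA6 was listed at 33.2 RPKM beside 945 for PSMA4. With the drug MCM2-7, over 5 listed subunits, spread 1.88-fold in Suff, 3.96-fold in Arg-, 2.20-fold in Leu- and 1.89-fold in Met-. For prefoldin it was 4.46-fold, 2.90-fold and 3.77-fold in Suff, Arg- and Leu-, and for the alpha ring 5.36-fold, 2.59-fold and 1.99-fold. In Leu- the 5.80-fold of CCT was above all of these, and in Suff its 3.73-fold was below prefoldin and the alpha ring.

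**Figure D3:**
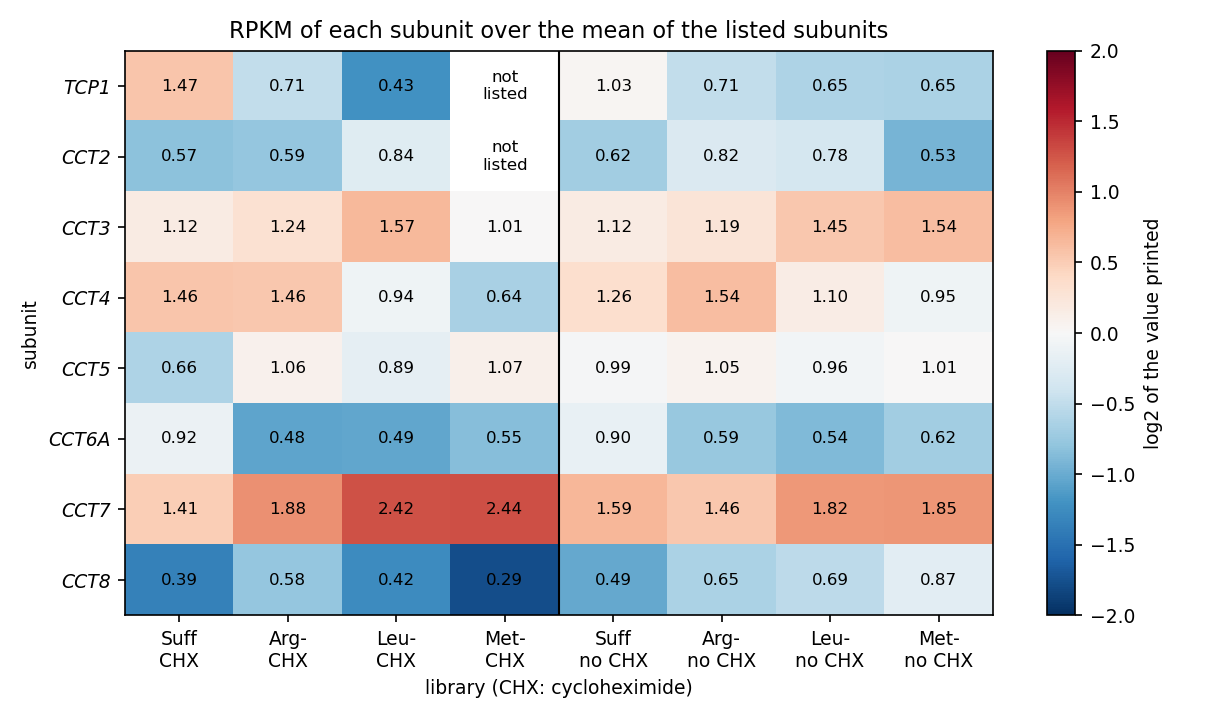
RPKM of each CCT subunit divided by the mean of the listed subunits of the same library, printed in each cell and coloured on a log2 scale, for the 8 libraries. Equal densities would give the value 1 in every cell, and CCT7 is at 1.41 or more in all 8 libraries while CCT8 is at 0.87 or less.

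PDCL3 was below Suff in all 5 comparisons in which it was listed, most of all in Arg- without the drug. Without cycloheximide its density was 157 RPKM in Suff (356 reads), 52.6 in Arg- (61 reads), 114 in Leu- (123 reads) and 122 in Met- (114 reads). The Arg- value was 2.99-fold below Suff (log2 ratio -1.56, interval -1.999 to -1.19) and lay at the 1.1 percentile of all mRNAs compared, of which 6.05% were at least 2-fold lower. In Leu- and Met- the log2 ratio was -0.46 (interval -0.77 to -0.16) and -0.37 (interval -0.69 to -0.07). Leu- was 2.17-fold and Met- 2.31-fold above Arg-, while Leu- and Met- did not differ from each other beyond counting error.

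With cycloheximide PDCL3 stood at 61.6 RPKM in Suff, 41.5 in Arg- and 53.8 in Leu-. The log2 ratio was -0.56 in Arg- (interval -0.93 to -0.20) and -0.19 in Leu- (interval -0.52 to 0.14). It was thus the only one of the 9 mRNAs below Suff in Arg- with cycloheximide, and Arg- was its lowest listed medium in both series. Of all mRNAs in that comparison with the drug only 49.6% lay above 0, and PDCL3 was within their range, at the 32.3 percentile. Since 72.8% of its windows are shared with pseudogenes, its RPKM level is less certain than that of the subunits.

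Its relatives showed that pattern in part. PDCL was also lower in Arg- without cycloheximide, at 31.5 against 77.3 RPKM (log2 ratio -1.27), and was level in Leu- (77.4). TXNDC9 was not lower there, at 87.5 against 70.2 RPKM (0.32). With cycloheximide PDCL was slightly above Suff in Arg- (56.6 against 45.0) and in Leu- (58.9). PDC and PDCL2 were listed in no library.

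Prefoldin, which acts upstream of the ring, was below Suff for every subunit in every comparison in which that subunit was listed. In Met- with cycloheximide only 2 of the 6 were listed. Of all mRNAs compared, 48.6% (Arg-), 61.0% (Leu-) and 65.5% (Met-) lay above 0 without the drug. With it 49.6% (Arg-) and 58.8% (Leu-) did. Counting intervals are not given for the prefoldin mRNAs. Without cycloheximide the median log2 ratio of its 6 subunits was -0.84 in Arg-, -0.23 in Leu- and -0.75 in Met-. PFDN5 differed most in Arg-, at 291 against 819.9 RPKM (-1.49), and PFDN4 in Met-, at 69.1 against 223 (-1.68). With cycloheximide the median was -0.87 in Arg- and -0.55 in Leu-, where CCT was at 1.82 and 1.88. Higher densities with the drug were not particular to CCT. Over the 5 MCM2-7 subunits listed the median was 1.95 in Arg-, 1.34 in Leu- and 2.26 in Met-. The alpha ring of the proteasome lay at 0.38 in Arg- and 0.78 in Leu-. Prefoldin mRNAs are short, and mRNAs of the same coding length (309 to 591 nt) listed in both libraries had medians of -0.78 in Arg- and -0.44 in Leu-. Without the drug such mRNAs (369 to 594 nt) had medians of -0.29 in Arg-, -0.10 in Leu- and -0.21 in Met-, above those of prefoldin. The part of length in the difference from CCT was not tested.

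**Figure D4:**
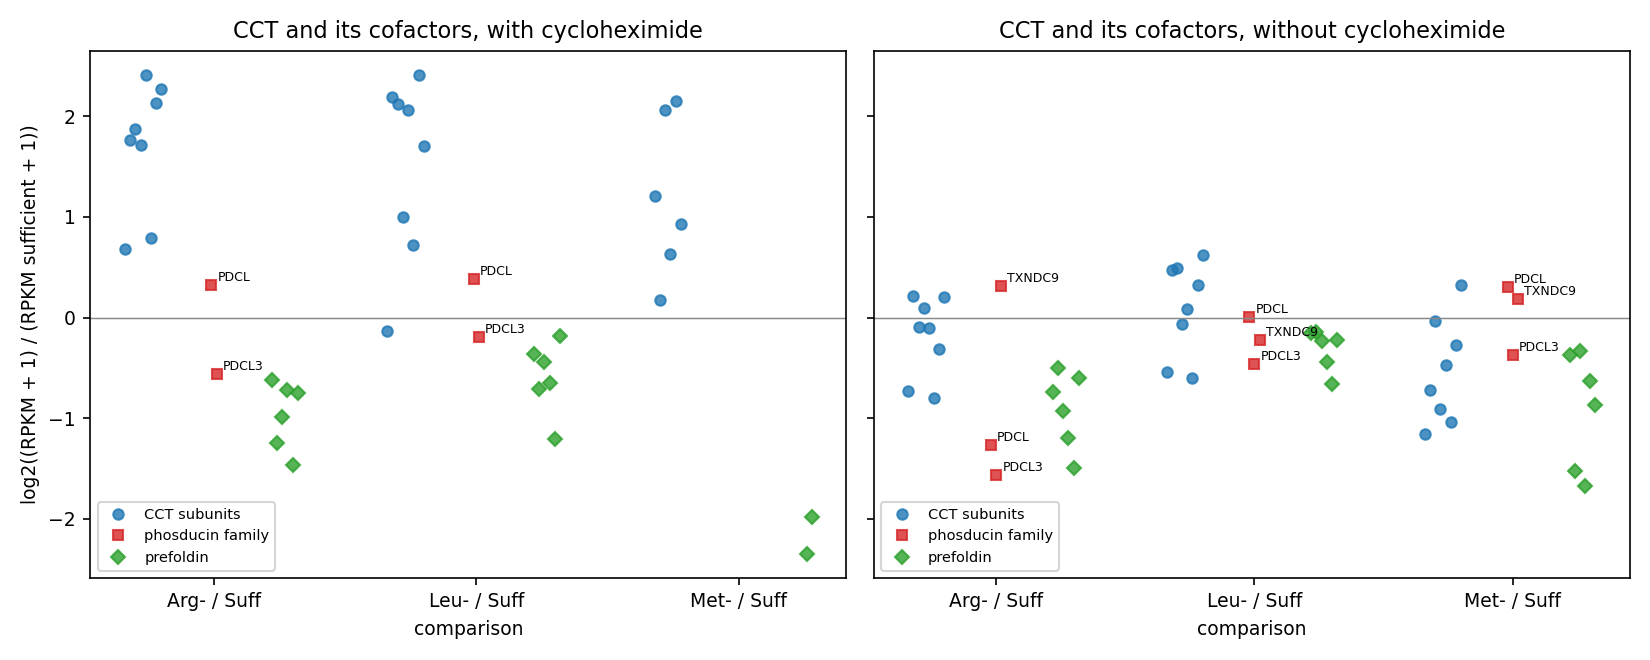
log2((RPKM + 1) / (RPKM sufficient + 1)) of the CCT subunits (circles), the phosducin family (squares, named) and the prefoldin subunits (diamonds), over mRNAs listed in both libraries of a comparison, with cycloheximide (left) and without (right). Prefoldin lies below 0 throughout, and PDCL3 and PDCL lie below all CCT subunits in Arg- without the drug.

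Among the clients, the 11 cytoskeletal mRNAs compared had median log2 ratios of -0.77, -0.70 and -0.87 in Arg-, Leu- and Met- without cycloheximide, beside -0.02, 0.14 and 0.31 over all mRNAs. ACTG1, cytoplasmic gamma actin, stood at 3032 RPKM in Suff and at 1495, 1582 and 1422 in Arg-, Leu- and Met-, and TUBB, a beta tubulin, at 1683, 1065, 1202 and 629.7. Of the 11, 4 were at least 2-fold lower in Arg-, 3 in Leu- and 4 in Met-, beside 6.05%, 2.12% and 5.47% of all mRNAs, and none was 2-fold higher, beside 8.33%, 6.89% and 20.2%. Single members lay above Suff, such as TUBA1A in Arg- (37.5 against 32.2 RPKM) and ACTR3 in Leu- (195 against 158). With cycloheximide ACTG1 was at 790.5 RPKM in Suff and at 1052, 1088 and 788 in the starved media. There the median over the 8 cytoskeletal mRNAs listed in both libraries was 0.45 in Arg- and 0.53 in Leu-. Over all mRNAs listed in both it was -0.23 and 0.02. In each medium 6 of the 8 lay above 0, where 49.6% (Arg-) and 58.8% (Leu-) of all mRNAs compared did. In Met- only 3 were listed in both, with a median of 0.60 beside 0.89 over all such mRNAs. The list of beta-propeller and other clients, which holds CDC20 and GNB1 and also VHL, HDAC3 and PLK1, had median log2 ratios of -0.19, -0.03 and 0.04 without the drug. None of 9 was at least 2-fold away from Suff in Arg- or Leu-, and 1 of 10 was in Met-, where 20.2% of all mRNAs were 2-fold higher and 5.47% lower. That one was RPTOR, named after its values were seen, at 21.5 against 6.28 RPKM. With cycloheximide the 9 beta-propeller and other clients listed in both libraries had medians of -0.67 in Arg- and 0.18 in Leu-. Of these 9, 3 in Arg- and 2 in Leu- were at least 2-fold higher, beside 16.6% and 12.1% of all mRNAs listed in both.

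The other chaperones differed among themselves. Of 9 mRNAs of heat shock proteins and HSF1 compared in Arg- with cycloheximide, 4 were at least 2-fold higher and 3 lower. Of all mRNAs, 29.7% and 18.4% were. HSPA4 (log2 ratio 2.60), HSP90AB1 (2.34), STIP1 (2.13) and HSP90AA1 (1.32) were higher, and DNAJB1 (-2.31), HSF1 (-1.66) and HSPA8 (-1.01) lower. Without the drug none of 10 was 2-fold higher in Arg- and 4 were lower, beside 8.33% and 6.05% of all mRNAs. HSPD1, the mitochondrial chaperonin, stood at 71.6 RPKM in Suff and at 331, 177 and 90.8 in Arg-, Leu- and Met- with cycloheximide, and at 642.5, 607.5, 770.1 and 488 in the same order without it. The second mitochondrial chaperonin mRNA, HSPE1, was at 1545 RPKM in Suff and at 325, 605 and 303 without the drug, and was not listed with it. HSPA8, the constitutive HSP70, stood at 754 RPKM in Suff without the drug and at 114, 163 and 139 in Arg-, Leu- and Met-. With the drug HSPA8 was at 105 RPKM in Suff, 51.9 in Arg- and 50.5 in Leu-, and was not listed in Met-. HSF1, the transcription factor of the heat shock response, was at 41.9 RPKM in Suff and at 17.2, 37.0 and 38.1 in Arg-, Leu- and Met- without the drug, and at 73.1, 22.5, 44.3 and 103 with it. CCT6B, the paralog of CCT6A, had its highest value, 13.98 RPKM, in Met- without cycloheximide. It, CCT8L2 and the CCT-like proteins of the Bardet-Biedl syndrome complex (MKKS, BBS10 and BBS12) were under the level needed for comparison in every pair.

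Among 1725 mRNAs of at least 10 RPKM in all 8 libraries, the 6 log2 ratios most like the subunit median were those of DNAJC7, an HSP70 and HSP90 cochaperone, at a Euclidean distance of 0.53. MDH1, cytosolic malate dehydrogenase (0.54), GNL3 (0.54), an mRNA without a symbol here and PSMD4, a proteasome subunit (0.58), followed. That median was over 6 subunits, since TCP1 and CCT2 were missing from Met- with cycloheximide. For PDCL3, likeness could be measured only over 5 ratios and 4505 mRNAs, and SDF2 was nearest (0.14), followed by ELOVL6 (0.33), an mRNA without a symbol here, PSME3 (0.46) and PAFAH1B2 (0.47). These are ratios to shared sufficient libraries, and the distances are descriptions.

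The proteins were compared for the residues that were withheld. Methionine made up between 2.51% (PDCL3) and 4.44% (CCT5) of the 9 proteins, above the median of 2.12% of all proteins listed without cycloheximide in every case. CCT5 with 24 methionines in 541 residues lay at the 97.5 percentile, and CCT3 with 22 in 545 at the 95.6 percentile. Leucine lay between 8.44% (CCT3) and 11.3% (PDCL3), around the median of 9.75%. Arginine was below its median of 5.64% in all but CCT3 (6.42%), and CCT8, with 3.28%, had the lowest share of the 9.

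Promoters were searched on both strands, from 250 bases before to 50 after the RefSeq transcription start (GRCh38.p14), for 8 of the 9 genes, since CCT6A was not in the table. The amino acid response element in the form TGATGNAAN occurred in none of the 8 and in 3.61% of all 35116 promoters. The heat shock element of 3 alternating GAA units also occurred in none (0.49% of all). Its first 2 units, in the form GAANNTTC, occurred in TCP1 and CCT2 and in 6.77% of all promoters. The 2 stretches are shown in the direction of the gene, with the motif in capitals, from chr6:159789815-159789844 (minus strand) and chr12:69585789-69585818 (plus strand).
TCP1: tcgtttgaggcGAAGGTTCaacctcttccc
CCT2: cccggagcgaaGAAATTTCtagtgtgggac
The motif starts 231 bases before the RefSeq start of TCP1 and 89 before that of CCT2. The gene spans given earlier are from GENCODE and begin elsewhere, so the CCT2 stretch lies inside the span of that gene.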

How the data were processed

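Ribosome footprints of HEK293T cells in 4 media, with and without cycloheximide, were analysed from 8 libraries, grouped by the condition in the labels. Per the labels and methods, the authors trimmed adaptors and low-quality bases, kept footprint-sized reads, aligned them with Bowtie to the human transcriptome (GRCh38; annotation release not given in the sources used here) without mismatches and kept unique reads. Per the records, duplicates were removed in the series without cycloheximide. The authors deposited RPKM, 1 value for each transcript listed, without pooling. The members and lists were chosen with earlier results of these data known.

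Transcripts were matched to GENCODE release 44 (96.7% to 97.1% of each library), and unmatched ones kept their identifiers. Multiplying RPKM by coding length (stop codon included only without cycloheximide) gave whole steps for 97.2% to 97.4% of transcripts, within 0.01 of a read, from which reads per library were recovered; this was tested on simulated data. Poisson and exact conditional intervals (95%) came from these reads, and, since PCR copies are not independent molecules, cover counting error only. Ratios are log2((RPKM + 1)/(RPKM Suff + 1)) over mRNAs with a mean of at least 10 RPKM in the pair, unlisted mRNAs counting as 0, and understate changes of low mRNAs. Called means 2-fold. Named genes were all 9 members, listed genes on which a result turned, and the 5 nearest patterns. For PDCL3 this rule was changed to the 5 ratios in which it was listed. Length-matched and level-matched medians and the unique-window correction were chosen after seeing the data. Alternatives were the pseudocount, 2 centrings, summed or fixed transcripts, leaving out CCT6A, and other filters for the background. Python 3.11.15 with scipy 1.17.1 was used.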

Additional observations from a re-analysis of the deposited data

Results flagged for a closer look

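The ratio of an mRNA could be set beside that of the other series in 24 cases. In 9 of them the ratio to sufficient medium lay above 0 with cycloheximide and below 0 without it, with both counting intervals off 0. The difference itself was not tested, and each side is 1 library against 1. All ratios with cycloheximide share the Suff library of that series, and all without it share the other. Over all mRNAs compared and listed in the 4 libraries, the share on these sides of 0 by the same rule was 6.13% of 4666 in Arg-, 3.81% of 4773 in Leu- and 11.5% of 1754 in Met-, beside 5 of 9, 1 of 9 and 3 of 6 among the subunits and PDCL3.

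In Arg- the log2 ratios with and without the drug were 0.69 and -0.73 for TCP1, 1.87 and -0.10 for CCT3, 2.41 and -0.10 for CCT5, 0.79 and -0.80 for CCT6A, and 2.14 and -0.32 for CCT7. In Leu- they were 0.72 and -0.60 for CCT6A. In Met- they were 2.07 and -0.47 for CCT5, 0.63 and -1.04 for CCT6A, and 2.16 and -0.27 for CCT7. In Met- with the drug the 0.63 of CCT6A becomes -0.25 when centred on mRNAs listed in all 4 libraries of the series. In Arg- without the drug the intervals of CCT3 and CCT5 ended at -0.0016 and -0.0004, so both only just met the rule.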

How the results depend on the processing

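A pseudocount of 0.1, RPKM summed over transcripts and 1 fixed transcript per series left each subunit median within its counting error and each count of 2-fold subunits within 1.5 times. Centring mattered more. Centred on all mRNAs compared, the subunit median was 1.675 in Leu- and 5.62 in Met- with cycloheximide, where all 6 listed subunits then passed 2-fold, as did all 1890 mRNAs listed in both libraries, and 0.0627 in Leu- and -0.91 in Met- without it. Centred on mRNAs listed in all 4 libraries of the series, it was 2.11 in Arg- and -0.10 in Met- with the drug, where 2 subunits (3 uncentred) passed 2-fold beside 21.0% of listed mRNAs, and 0.0057 in Leu- and -0.97 in Met- without. Either centring put 4 subunits at least 2-fold lower in Met- without the drug, beside 10.8% and 12.2% of all mRNAs. Over listed subunits the Met- median with the drug was 1.07. The sign of CCT4 (-0.71) and CCT6A (-0.25) in Met- with cycloheximide, CCT5 in Leu- without it (-0.05 and -0.11) and CCT8 in Met- without it (-0.05, with the second centring) turned.

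Without CCT6A the highest subunit was 3.22-fold above the lowest in Arg- with cycloheximide (coefficient of variation 45.4%) and 2.80-fold in Leu- without it. Divided by the share of unique windows, a choice made after seeing the data, the spread was 4.30-fold in Suff (49.7%, from 43.0%), 3.55-fold in Arg- (40.2%), 4.33-fold in Leu- (59.4%) and 6.24-fold in Met- with the drug, and 2.86-fold in Suff, 1.98-fold in Arg- (25.2%) and 2.58-fold in Leu- (33.3%) without it, where the coefficient in Met- was 37.9%. No paired analysis was possible because each condition had 1 library. Depth limits Met- with cycloheximide most, where an mRNA needed 64 reads to be listed.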
